A study of Gallus gallus with 6 samples.

Results

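GFP+ cells sorted from chick neural tubes (NTs) at embryonic day 4 (E4) were described by the 3 Tubb3::CAG:control arrays, 3 of the 6 arrays of the series. All arrays that carried this label were taken, and no measured value was used to choose them. The description covers 13009 genes, each read by 1 probe set. Among the probe sets annotated to that gene alone, the one with the highest mean in the control arrays was taken.

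The series asked how Tcf/Lef transcription acts in neurons that have left the cell cycle, and the control arrays are its reference state. Wild-type White-Leghorn embryos were electroporated at E3, and the NT at spinal cord level was taken 24 h later. They received Cre recombinase under an enhancer of TUBB3 with a TK minimal promoter, together with a control vector that releases membrane GFP once Cre has removed a LoxP-flanked block. Dissociation was with trypsin, GFP+ cells were collected by flow cytometry, and each array held RNA from a separate pool of many NTs, called pool 1, pool 2 and pool 3 here. The cells are therefore those in which the TUBB3 element had been active in the electroporated tissue and GFP had accumulated, and every value is a mean over the embryos of a pool. No untransfected or GFP-negative NT cells were analysed here, so a level can be ranked but not called enriched by the sort.

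In the embryonic spinal cord, neural progenitors divide next to the central canal and carry SOX2, PAX6 and Notch effectors such as HES5. Cells that leave the cycle pass through a short neurogenic step, move outwards and switch on neuronal cytoskeletal genes such as TUBB3, STMN2 and DCX. Transcription factors such as ISL1 in motor neurons and LHX1 or EN1 in groups of interneurons then mark the type of neuron that each becomes.

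Values are log2 signals made by robust multi-array average (RMA), in which 1 unit is a 2-fold difference. The probe sets of different genes bind their targets with different strength, so a rank orders signals and not numbers of transcripts. Each pool is 1 array, so a difference between 2 pools has no replicate and no p-value. Such a difference is counted here when it reaches 2-fold, beside the share of all 13009 genes that do so in the same direction. In pooled cells, fewer cells of a type and less RNA per cell cannot be told apart.

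The 3 arrays had nearly the same distribution of values, with medians of 6.93 in every pool, as quantile normalization brings about. In pools 1, 2 and 3 the 5th percentiles were 3.27, 3.24 and 3.30, and the 95th were 10.51, 10.54 and 10.51. Across all probe sets Pearson's r was 0.987 between pools 1 and 2, 0.984 between pools 2 and 3, and 0.978 between pools 1 and 3. Gene means ran from 2.41 to 13.94 with a median of 7.95. The median SD of a gene over the pools was 0.19 (n = 3), 93.1% of genes had an SD under 0.5, and 809 genes (6.22%) spanned 2-fold or more. Averaged over actin, GAPDH and EF1a, control probe sets at the 3′ ends exceeded those at the 5′ ends by 0.23 to 0.36. This measure of RNA integrity was nearly the same in the pools. The transcripts differed, with −0.10, 0.03 and −0.21 for actin in pools 1, 2 and 3. GAPDH had 0.64, 0.57 and 0.50, and EF1a 0.29, 0.48 and 0.40. The number of arrays, 3, limits the precision of every mean.

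The brightest signals belonged to the cytoskeleton, the ribosome and energy metabolism. TUBA1A, an alpha-tubulin abundant in young neurons, had the highest mean of all genes, at 14.04 in pool 1, 13.99 in pool 2 and 13.80 in pool 3. It was followed by RPL27, ACTG1, RPS6, RPL15, ARIH1, YBX1, EEF1D, PPIA and NME2, a set of ribosomal proteins, a cytoplasmic actin, a translation elongation subunit and widely expressed enzymes and binding proteins. Of the 25 brightest genes 12 encoded cytosolic ribosomal proteins, and so did 40 of the brightest 100. The other genes among those 25 included EEF1A1, COX6C, SEC61B, NPM1, MARCKS, a membrane protein of growth cones, and STMN1, a regulator of microtubule turnover. These 25 genes were even across the pools, with ranges from 0.011 to 0.48 log2 units. The widest was that of STMN1, at 13.38, 13.31 and 12.90. For 8 of the 25 the probe set has a suffix that the array maker gives where probes can also match related transcripts. These were RPL27, RPS20, RPL19, ACTG1, EEF1A1, SEC61B, MARCKS and STMN1, so related transcripts may share these signals.

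Genes of cytosolic ribosomes were bright as a list, with 54 of 58 measured members in the brightest 10th of genes (mean of 10.45 or above). Of the oxidative phosphorylation genes 29 of 42 were in that 10th, led by COX6C at 13.29 and NDUFA4, and of the glycolysis genes 8 of 15. GAPDH read 13.08, 13.11 and 13.21, and ENO1, the widely expressed enolase, 12.95, 13.21 and 13.18. LDHB, which encodes the heart-type subunit of lactate dehydrogenase, stood at 12.82, 13.15 and 13.29. The median difference between pools 1 and 3 was −0.00 for the ribosome and 0.04 for oxidative phosphorylation. For glycolysis it was −0.28, and 12 of 15 genes were lowest in pool 1, as 41.2% of all genes were. ALDOC, an aldolase of the nervous system, read 9.32, 10.26 and 10.65.

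The label of the cells as neurons was checked against markers. TUBB3, a beta-tubulin of neurons whose enhancer drove the Cre, had a mean of 11.32 ± 0.50 (SD, n = 3) and rank 540, with signals of 11.69, 11.51 and 10.76 in pools 1, 2 and 3. It was high in every pool and lowest in pool 3. Its place in the sort makes it no independent check, and its probe set is of the kind that can match related transcripts. STMN2, a microtubule regulator of growing axons, had a mean of 11.49 ± 0.97 and rank 435, with 12.40, 11.59 and 10.48. DCX, the microtubule-associated protein doublecortin of migrating neurons, had a mean of 11.59 ± 0.39 and rank 389, with 11.97, 11.61 and 11.19. Both followed the order of TUBB3. With the mean of its 5 probe sets DCX read 10.60. ISL1, a LIM homeodomain factor of motor neurons and of a dorsal interneuron class, had a mean of 12.16 ± 0.39 and rank 178, with 12.60, 12.06 and 11.83.

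Most progenitor markers, and TOP2A among the markers of division, were bright in the same pools. SOX2, a factor that keeps neural progenitors undifferentiated, had a mean of 10.56 ± 0.58 and rank 1183, with 10.18, 10.26 and 11.22 in pools 1, 2 and 3. It was highest in pool 3, the pool with the lowest TUBB3. By pool it had ranks 1687, 1624 and 601, and without pool 3 its rank was 1646, so its place among the 1300 genes of the brightest 10th rests on pool 3. HES5, an effector of Notch signaling, read 12.48, 12.07 and 12.75 and ranked 117, and NES, the intermediate filament nestin, read 12.65, 12.71 and 12.91 and ranked 76. TOP2A, the topoisomerase of dividing cells, ranked 298 with 11.34, 11.85 and 12.19. The division marker MKI67 was below the median gene, at rank 7218, and the progenitor marker PAX6 was outside the brightest 10th, at rank 3090. The signals therefore carry both neuronal and progenitor programmes, and the text below calls the material GFP+ cells. Whether this came from cells at different stages or from cells that held both sets of transcripts cannot be told apart in a pool.

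**Figure D1:**
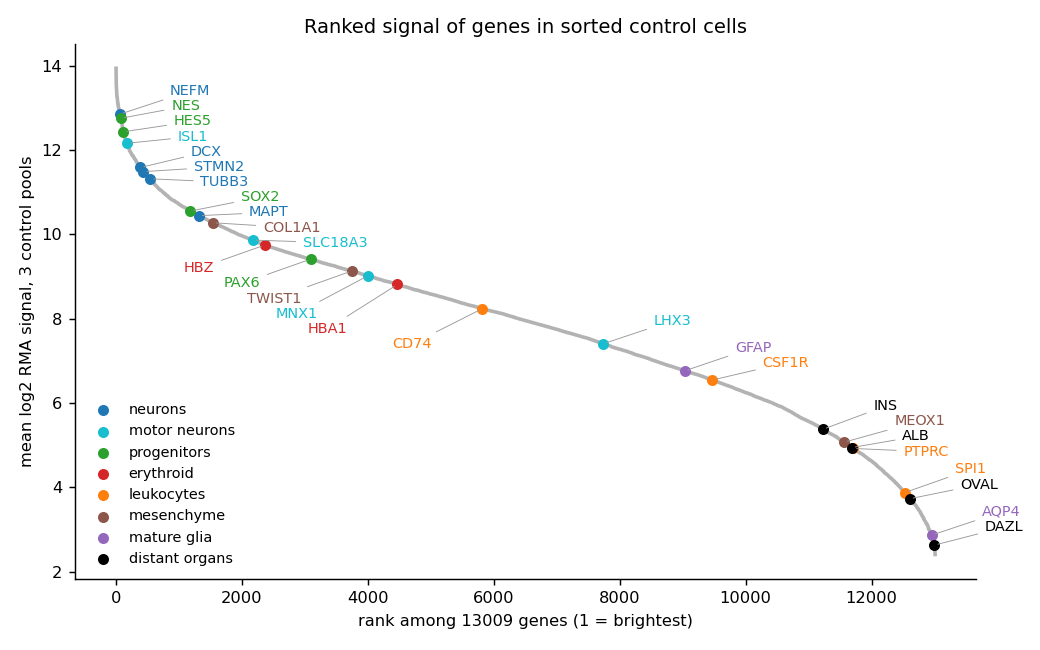
Mean log2 RMA signal over the 3 control pools (y) of each of 13009 genes ordered by rank (x, 1 = brightest), with genes of 8 classes marked as coloured points on the grey curve. TUBB3, STMN2, DCX and ISL1 lie on the steep left end together with NES and HES5, while PTPRC, SPI1, AQP4 and genes of distant organs lie at the right.

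A reference for absent transcripts was taken from genes of organs far from the NT, such as ovalbumin (OVAL), albumin (ALB), insulin (INS) and the germ cell gene DAZL. Of the 44 measured, 43 were below the median of all genes, none was in the brightest 10th, and their median percentile was 10.4. The highest was AVD, the egg white protein avidin, at 8.43. Their 90th percentile, 7.30, is used below as a level that genes with no known role in this tissue can reach on this array, and 7946 of the 13009 genes had a mean above it. It is a guide to the array background and not a limit of detection for any given probe set.

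Pan-neuronal genes formed the brightest of the cell type lists. Of 29 measured, 17 were in the brightest 10th, 3 below the median gene and 26 above the organ reference, and the median percentile was 94.7. NEFM, the middle neurofilament subunit, ranked 59 with 13.10, 13.05 and 12.40 in pools 1, 2 and 3. CRMP1 and DPYSL2, mediators of growth cone collapse, had means of 12.70 and 12.22, and BASP1, a membrane protein of axon endings, had 12.38. TUBB2B, TAGLN3 and NCAM1, the neural cell adhesion molecule, lay between 12.06 and 12.29. The exceptions were SCG2, SNCG and GAP43. GAP43, a growth cone protein, read 5.25, 5.38 and 5.42 from its only probe set and was under the organ reference in every pool.

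The neurogenic step between both states was represented less evenly. Of 26 measured genes 4 were in the brightest 10th and 9 below the median gene. NHLH1, a basic helix-loop-helix factor of newborn neurons, ranked 350 with 11.82, 11.66 and 11.55. CDKN1B, an inhibitor of cell cycle entry, had 10.75, 11.09 and 10.78, HES6 had a mean of 10.82, and MYT1, a zinc finger factor, had 11.06, 10.64 and 10.66. DLL1, a Notch ligand of cells about to become neurons, had a mean of 10.26 and was highest in pool 3, at 10.57. The proneural factors NEUROG1, NEUROG2 and ATOH1 were dim, with means of 6.53, 6.77 and 6.76, and NEUROD4 was brighter at 8.76. NEUROD1 differed between pools, at 6.48, 8.08 and 5.89, with pool 2 high.

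Motor neuron genes spread from the top to the bottom of the range, with 2 of 20 in the brightest 10th and 6 below the median gene. Both of the former were regulators or guidance cues, ISL1 and SLIT3, a secreted repellent, which read 11.37, 10.91 and 10.59. FOXP1, a factor of limb-level motor neurons, read 10.92, 10.38 and 9.99. MNX1, which consolidates motor neuron identity, had 9.84, 9.26 and 7.97, and SLC18A3, the vesicular acetylcholine transporter, 10.67, 9.70 and 9.23. Both were highest in pool 1. LHX3, the partner of ISL1 in motor neuron specification, was near the organ reference at 7.58, 7.11 and 7.52, and TBX20 was dim at a mean of 3.61.

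Genes of dorsal interneurons had a median percentile of 54.2 and those of ventral interneurons 30.9, over 14 of 26 and 15 of 25 listed genes. BHLHE22, a factor of several dorsal classes, ranked 333 with 11.81, 11.73 and 11.58. LHX1 and PAX2, which mark inhibitory dorsal classes among others, read 10.66, 9.81 and 8.67, and 10.04, 9.59 and 8.99. EN1, the defining factor of the V1 class, had 10.61, 10.07 and 9.27. All of these were highest in pool 1 and lowest in pool 3. In all, 7 of 14 dorsal and 9 of 15 ventral genes fell in steps from pool 1 to pool 3 (16.7% of all genes). The reverse order was shown by 2 dorsal and 4 ventral genes (24% of all genes). PRDM12 and VSX1 of the ventral list rose in this way, at 8.18, 8.55 and 9.02, and 8.13, 8.42 and 8.74. ROBO2 of the dorsal list did so at 9.75, 10.01 and 10.14. Dorsal commissural markers were weaker, with LHX2 at 8.64, 7.84 and 6.75 and LHX9 at 8.32, 8.01 and 6.76. The adhesion molecule of commissural axons CNTN2 read 9.19, 8.30 and 7.12. GATA2, a factor of the V2b class, and SOX14 were at the bottom of the range, with means of 2.98 and 4.18.

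Genes of the transmitter list were mostly dim, with 16 of 22 below the median gene and none in the brightest 10th. After SLC18A3, the brightest were TAC1, the precursor of substance P, at 9.55, 9.77 and 7.81, and RELN, at 9.30, 8.71 and 8.89. RELN encodes the secreted protein reelin, which is in the list but confers no transmitter. The choline transporter SLC5A7 and choline acetyltransferase CHAT read 10.01, 8.61 and 6.72, and 9.20, 7.80 and 6.98. In pool 3 both were below the organ reference. SLC17A6, the vesicular glutamate transporter of most excitatory spinal neurons, read 5.93, 3.66 and 3.14, and TH, the enzyme of catecholamine synthesis, was at 3.40 on average.

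Synaptic release genes had a median percentile of 49.1, against 82.4 for axon guidance receptors. SYT11 and STX1A, a synaptotagmin and a plasma membrane SNARE, had means of 12.12 and 11.83 and were the only 2 of 16 release genes in the brightest 10th. SNAP25, the other SNARE of the plasma membrane, had 10.75, 10.06 and 8.95, and SYP, a protein of synaptic vesicles, had 9.40, 8.86 and 8.27. Of the guidance receptors 8 of 27 were in the brightest 10th and 26 above the organ reference. ALCAM, an adhesion molecule, read 12.22, 12.06 and 11.31, PLXNA2, a semaphorin receptor, 11.90, 11.46 and 11.65, and ROBO1, a Slit receptor, 11.15, 10.88 and 11.12. NTRK2, a neurotrophin receptor, was the exception at a mean of 4.69.

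Progenitor genes were also bright as a list. Of 38 measured, 13 were in the brightest 10th, 3 below the median gene and 36 above the organ reference, with a median percentile of 87.6. LFNG, a modifier of Notch, ranked 99 with 12.41, 12.51 and 12.74. The transcription factors ZIC1 and ZIC2, active in dorsal progenitors, had means of 12.21 and 12.02. FABP7, a lipid-binding protein of radial glia, read 11.51, 11.72 and 11.97, and PAX6, which patterns intermediate domains, 8.83, 9.33 and 10.07. DBX2 was lowest of the list at 5.32, 5.85 and 6.82. Of 44 cell cycle genes 13 were in the brightest 10th and 42 above the organ reference. PCNA, the clamp of DNA polymerases, read 12.03, 12.35 and 12.68 and CCND1, cyclin D1, 11.44, 11.71 and 12.45. MKI67, a common label of dividing cells, had a mean below the median gene, with 7.23, 7.52 and 8.20.

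**Figure D2:**
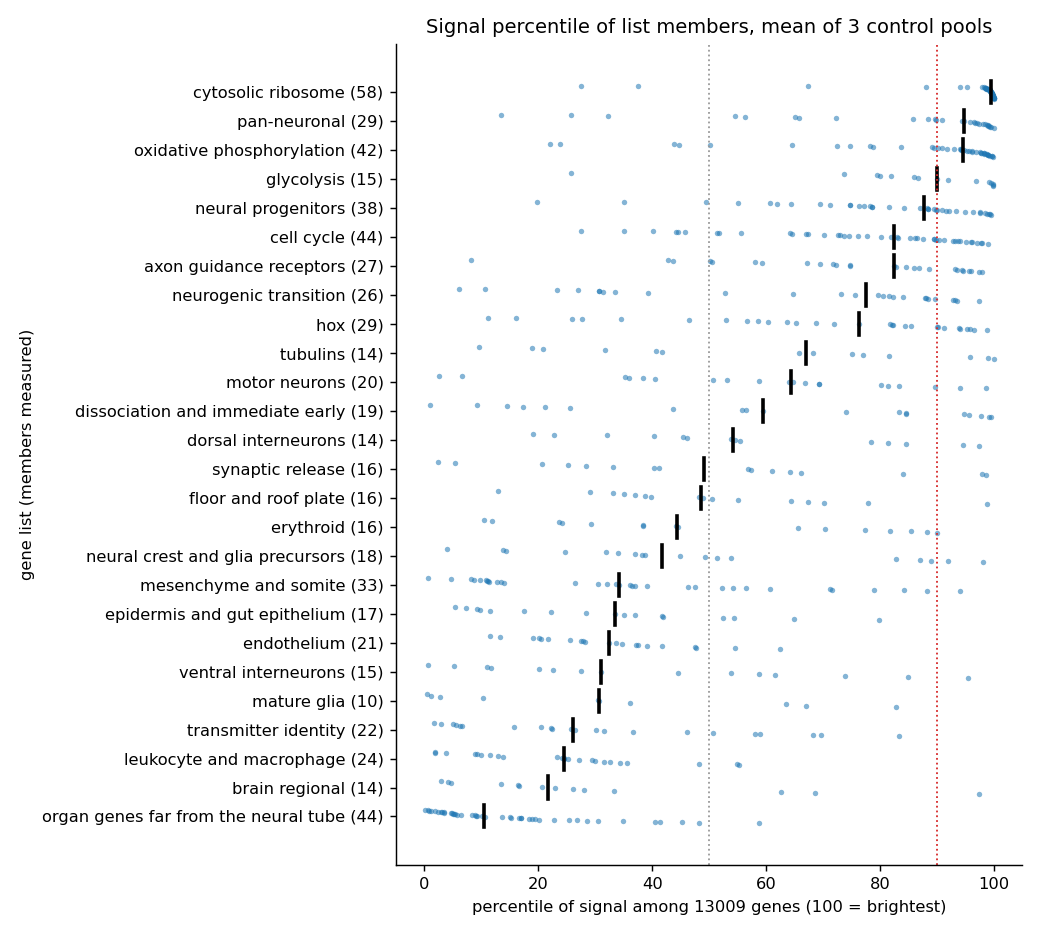
Percentile of the mean signal among 13009 genes (x, 100 = brightest) of the measured members of 26 gene lists (y, number measured in brackets), with each point a gene and each black bar the median of a list. The dotted lines mark the middle of all genes and the start of the brightest 10th. The cytosolic ribosome, pan-neuronal and oxidative phosphorylation lists have medians past the latter, and glycolysis is just past it at 90.1.

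Other cell types of the embryo were represented unequally. Of 24 leukocyte and macrophage genes 22 were below the median gene, none was in the brightest 10th and 3 were above the organ reference. PTPRC, the pan-leukocyte phosphatase CD45, read 5.15, 4.77 and 4.84, SPI1, the factor of myeloid cells, 3.76, 3.79 and 4.07, and CSF1R, the macrophage growth factor receptor, 6.33, 6.40 and 6.90. All these were below the organ reference in every pool. The brightest was CD74, the chaperone of class II antigen presentation, at 8.13, 8.21 and 8.36.

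Blood genes were different, because the globins stood well above that reference. HBE, an embryonic beta-type globin, read 10.88, 9.93 and 10.04 in pools 1, 2 and 3. HBBR, another embryonic beta-type globin, read 10.71, 9.76 and 9.62. HBZ, an embryonic alpha-type globin, read 10.21, 9.37 and 9.66, HBAD 10.15, 8.96 and 9.30, and HBA1 9.21, 8.70 and 8.53. All 5 globins were highest in pool 1. Related globins can share probes, so they are not independent readings. In all, 9 of 16 erythroid genes were above the organ reference, the others being TFRC, CA2, TAL1 and FECH, which are also used outside red cells. Genes more confined to red cells were dim. The band 3 anion exchanger SLC4A1 read 6.51, 6.38 and 6.10, RHAG, a membrane protein of red cells, 4.94, 5.30 and 5.28, and HEMGN, a nuclear protein of erythroid cells, 4.81, 5.02 and 5.11. Over 16 erythroid genes the median percentile was 44.4 and none was in the brightest 10th. The transferrin receptor TFRC, which all dividing cells use, came nearest, at 10.29, 10.47 and 10.59. GATA1 and ALAS2, which define the lineage, were not measured under these symbols.

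Endothelial genes had 19 of 21 members below the median gene, and 6 above the organ reference. PECAM1, an adhesion molecule of vessels, had a mean of 7.49, and KDR, the main VEGF receptor, 5.37, 5.48 and 5.13. Mesenchyme and somite genes had 23 of 33 below the median gene, and several that were bright. FN1, fibronectin, read 11.02, 11.50 and 10.39 and was the only 1 of 33 in the brightest 10th, where there were 2 without pool 3. COL1A1 and COL1A2, the chains of type I collagen, read 10.70, 11.39 and 8.74, and 10.33, 10.60 and 8.88. The muscle regulator MYOD1 was dim at 4.02, 4.64 and 3.57. Of 17 epidermal and gut genes 13 were below the median gene, with EPCAM, an epithelial adhesion molecule, the brightest at 9.61, 9.83 and 9.41.

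Of 18 neural crest genes 11 were below the median gene and 2 in the brightest 10th, and of 16 floor and roof plate genes 9 and 1. The bright members of the crest list were CRABP1 and NGFR, which read 11.06, 10.76 and 10.19. Both fell from pool 1 to pool 3. That of the floor and roof plate list was ZIC1, which the progenitor list also holds. SOX10, a factor of crest and glia, read 9.38, 9.96 and 10.11, and CRABP1, a retinoic acid binding protein, 12.49, 12.03 and 11.26. SHH, the floor plate signal, read 7.38, 8.24 and 7.97, and FOXA2, a floor plate factor, had a mean of 7.98. Both were a little above the organ reference in each pool. WNT3A, a roof plate signal, read 9.35, 9.60 and 9.56. Of 10 genes of mature glia none was in the brightest 10th, with the astrocyte gene AQP4 at 2.99, 2.77 and 2.83, and MBP, a myelin protein, at 9.43, 8.98 and 8.26.

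Hox genes are switched on in order along the trunk, and those of anterior and middle groups were bright. Of 29 measured, 9 were in the brightest 10th and 24 above the organ reference. HOXA4 ranked 154 with 12.26, 12.16 and 12.32, and HOXB6 read 11.44, 11.43 and 10.99, HOXB8 10.99, 10.92 and 11.02, and HOXC9 10.60, 10.57 and 10.20. The HOXA13 and HOXB13 genes of the tail end were under the organ reference, with means of 5.63 and 6.58. Genes that mark regions of the brain had 11 of 14 below the median gene. OTX2 and FEZF2, of the forebrain and midbrain, had means of 4.07 and 3.71, while GBX2, best known from the hindbrain border, ranked 348 with 11.73, 11.70 and 11.60.

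The pools differed most between pool 1 and pool 3. At 2-fold or more, 470 genes (3.61%) were higher in pool 1 than in pool 3 and 109 (0.838%) were lower. Pools 2 and 3 were separated by 340 genes higher in pool 2 (2.61%) and 29 lower (0.223%). Pools 1 and 2 were separated by 75 genes higher in pool 1 (0.577%) and 129 lower (0.992%). The median difference of all genes was −0.04 for pool 1 minus pool 2, −0.06 for pool 1 minus pool 3 and −0.02 for pool 2 minus pool 3. Genes of all levels contributed. In 5 equal bins of genes from the dimmest to the brightest, 135, 209, 200, 169 and 96 had a range of 2-fold or more.

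Neuronal genes were higher in pool 1 than in pool 3 almost throughout. Of 29 pan-neuronal genes 12 were higher in pool 1 at 2-fold or more, where 3.61% of all genes were, and none was lower. The median difference was 0.87 log2 units, and that between pools 2 and 3 was 0.53 with 4 genes past 2-fold (2.61% of all genes). Of the 29, 27 were highest in pool 1, as 28.6% of all genes were. In 26 the order was pool 1, pool 2, pool 3 from high to low, an order shown by 16.7% of all genes. STMN3, a stathmin of neurons, read 11.22, 10.35 and 8.61, and NEFL, the light neurofilament subunit, 11.87, 11.08 and 10.14. STMN2 had rank 126 in pool 1, 406 in pool 2 and 1303 in pool 3, and TUBB3 had ranks 347, 455 and 992. The second-brightest probe sets, which had not been used to represent the genes, had the same direction in 18 of 18 pan-neuronal genes, with a median of 1.27. Here and below, only second probe sets at least 2 log2 units over the 5th percentile of the probe sets were counted. They read the same RNA on the same arrays, so they give no independent reading of the pools. The share over all genes was not computed. DCX was higher in pool 1 than in pool 3 with all of its 5 probe sets, and ISL1 with both.

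The lists of neuron classes, transmitters and synapses had the same direction, with medians of a similar size for motor neuron and synaptic genes and smaller ones for the others. At 2-fold or more, 3.61% of all genes were higher in pool 1 than in pool 3 and 0.838% lower. Motor neuron genes had a median of 0.94 for pool 1 minus pool 3, with 8 of 20 higher and 1 lower at 2-fold or more. The exception was ETV4, at 7.63, 8.87 and 8.80. Synaptic release genes had a median of 0.89, with 7 of 16 higher and none lower. NRXN3, a presynaptic adhesion molecule, read 10.09, 8.13 and 7.44, and SYT4 7.59, 6.82 and 5.50. For the transmitter list the median was 0.38, with 8 of 22 higher. SLC6A5, the glycine transporter of inhibitory neurons, read 8.59, 6.69 and 5.20, GAD1, which makes GABA, 7.21, 6.09 and 4.87, and SLC32A1, the vesicular transporter of both, had 7.26 and 6.30 in pools 1 and 2 and a mean of 6.19 over the pools. Each of these inhibitory genes was highest in pool 1 and lowest in pool 3, as were SLC5A7 and CHAT of cholinergic neurons. GAD1 and SLC32A1 were under the organ reference in every pool, and SLC6A5 in pools 2 and 3. Only 7 of the 22 genes of the transmitter list had means above it. Of the dorsal interneuron genes 6 of 14 and of the ventral ones 3 of 15 were higher in pool 1 at 2-fold, and none was lower, with medians of 0.32 and 0.47.

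Neurogenic genes and guidance receptors had small median differences, although some receptors differed between pools. Over 26 neurogenic genes the median difference between pools 1 and 3 was −0.02, with 2 higher and none lower. Those 2 were EBF1 and EBF3, factors of differentiating neurons, at 10.51, 10.06 and 9.19, and 10.29, 9.95 and 8.93. Over 27 guidance receptors the median was 0.14, with 6 higher and none lower, against 3.61% and 0.838% of all genes. PLXNA4 read 11.04, 10.23 and 9.24, NTRK3, the receptor of neurotrophin 3, 10.23, 9.13 and 8.61, and NRP2, a semaphorin co-receptor, 10.63, 10.07 and 9.52. ROBO2, another Slit receptor, read 9.75, 10.01 and 10.14.

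Progenitor and cell cycle genes ran the other way, with smaller differences. Over 38 progenitor genes the median for pool 1 minus pool 3 was −0.33. None was higher in pool 1 at 2-fold and 4 were lower, where 0.838% of all genes were. Of the list 18 followed the order pool 3, pool 2, pool 1 from high to low, which 24% of all genes did, and 24 were highest in pool 3, against 40.3% of all genes. The 4 were SOX2, PAX6, OLIG2 and DBX2. OLIG2, the factor of motor neuron and oligodendrocyte progenitors, read 9.16, 9.53 and 10.48. NOTCH1 read 10.72, 10.96 and 11.65, and PTPRZ1, a phosphatase of radial glia, 9.30, 9.06 and 10.22. Second probe sets had the same direction in 11 of 15 progenitor genes.

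Over 44 cell cycle genes the median was −0.71, with 3 lower in pool 1 than in pool 3 at 2-fold (0.838% of all genes) and none higher (3.61%). In 39 of the 44 pool 1 was the lowest, as it was in 41.2% of all genes. In 30 the order was pool 3, pool 2, pool 1, which 24% of all genes showed. CCND1, MCM5 and CCNA2 were the 3. MCM5, a subunit of the replicative helicase, read 8.88, 9.65 and 9.95, and CCNA2, a cyclin of S phase and G2, 8.75, 9.28 and 9.78. CDC45, a factor of replication origins, was highest in pool 2, at 7.53, 8.99 and 8.25. Second probe sets had the same direction in 21 of 23 genes. The 3′ minus 5′ differences were 0.28, 0.36 and 0.23 in pools 1, 2 and 3, and the part of RNA quality in the differences between pools was not tested.

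**Figure D3:**
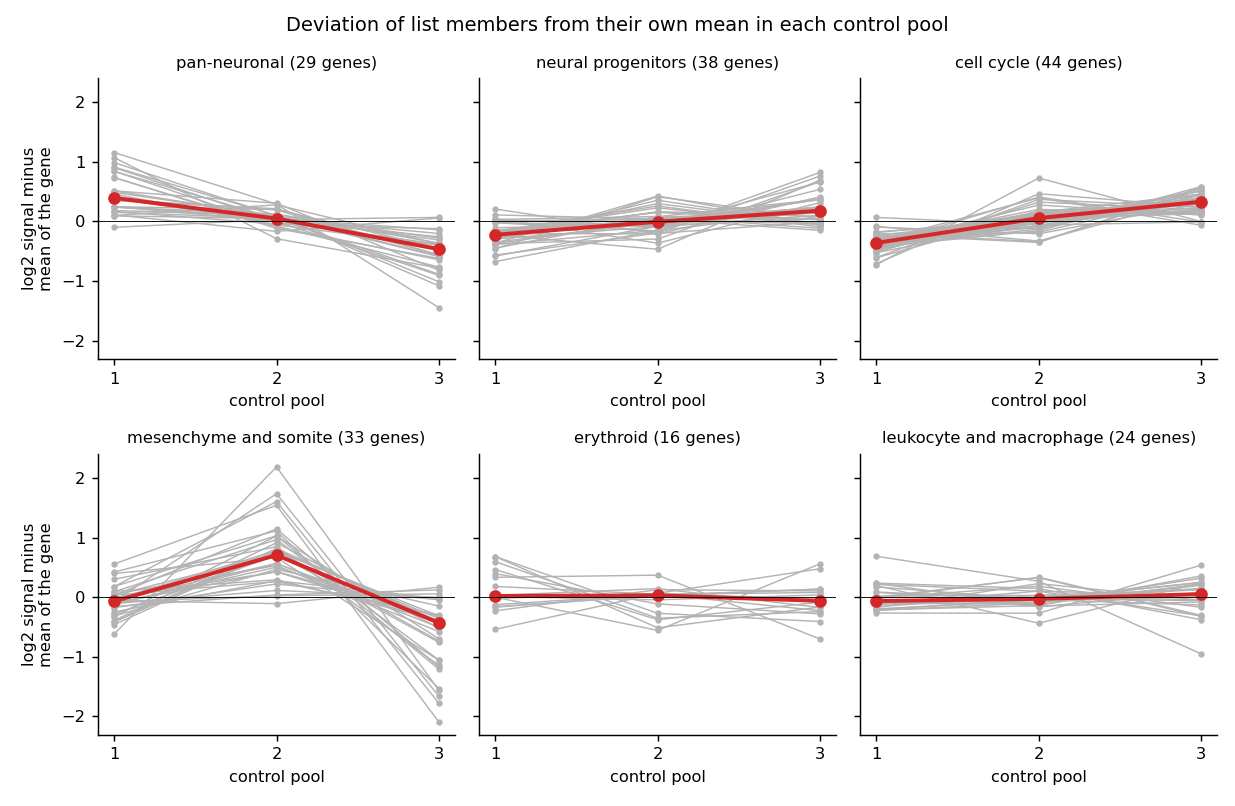
Log2 RMA signal of each gene minus its own mean over the pools (y) in control pools 1, 2 and 3 (x) for 6 gene lists, with each grey line a gene and the red line the median of the list. Pan-neuronal genes are highest in pool 1, cell cycle genes lowest in pool 1 and mesenchyme genes highest in pool 2. The medians of erythroid and leukocyte genes are nearly flat. Of these, 9 of 16 and 3 of 24 were above the organ reference, so flat medians say little.

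Mesenchyme and somite genes separated pool 2 from the others. Of 33 genes 30 were highest in pool 2, against 31.1% of all genes, and 23 were lowest in pool 3, against 30.7%. The median was 1.12 for pool 2 minus pool 3, with 20 of 33 higher in pool 2 at 2-fold or more (2.61% of all genes), and −0.69 for pool 1 minus pool 2, with 9 higher in pool 2 (0.992%). The median level of the list was 6.94 in pool 1, 7.78 in pool 2 and 6.47 in pool 3. TWIST1, a regulator of mesenchyme, read 9.06, 10.87 and 7.47, DCN, the matrix proteoglycan decorin, 8.64, 9.63 and 5.99, and LUM, a related proteoglycan, 4.41, 7.22 and 3.47. MEOX2, a factor of somites and limb muscle, read 5.27, 6.70 and 3.31. LUM and MEOX2 were under the organ reference in every pool, and 13 of the 33 genes had means above it. Second probe sets had the same direction between pools 2 and 3 in 12 of 13 genes. Between pools 1 and 3 the median was 0.37, with 9 of 33 higher in pool 1 at 2-fold or more (3.61% of all genes) and none lower. In this pair the mesenchyme list had the same direction as the neuronal lists. Those lists differed from it in that pool 1 and not pool 2 was the highest. The part of mesenchyme transcripts in the differences of the neuronal and progenitor lists between pools was not tested.

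Endothelial genes were lowest in pool 3 in part. Of 21 genes 6 were higher in pool 2 than in pool 3 at 2-fold (2.61% of all genes), with a median of 0.30. CDH5, the cadherin of endothelial junctions, read 7.28, 7.44 and 4.98, TEK, the angiopoietin receptor, 6.41, 6.80 and 4.95, and ERG, an endothelial and mesenchymal factor, 6.10, 7.81 and 5.38. The means of CDH5, TEK and ERG, at 6.57, 6.05 and 6.43, were under the organ reference. A second probe set of TEK read 6.07, 5.72 and 5.65 in pools 1, 2 and 3, a much smaller difference. PECAM1, EMCN and ENG had ranges of 0.11, 0.07 and 0.05 log2 units, but PECAM1 was near the organ reference, where a flat reading says little. KDR, under that reference, was lower in pool 3 than in pool 1 with each of its 5 probe sets. In 11 of the 21 genes pool 3 was the lowest, as it was in 30.7% of all genes, so the list did not move as a whole. Of the epidermal genes 4 of 17 were higher in pool 1 than in pool 3 at 2-fold (3.61% of all genes). KRT7, a keratin of simple epithelia, read 9.92, 9.29 and 7.08, CLDN1, a tight junction protein, 9.02, 8.49 and 6.79, and CDH1, E-cadherin, 8.69, 8.45 and 7.43.

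Blood genes differed little in their list medians. Over 16 erythroid genes the medians were 0.01 for pool 1 minus pool 2, 0.11 for pool 1 minus pool 3 and −0.05 for pool 2 minus pool 3. Of these, HBBR and TAL1, a factor of blood and of some interneurons, were higher in pool 1 than in pool 3 at 2-fold (3.61% of all genes). CA2, a carbonic anhydrase, was lower (0.838%), at 8.55, 9.15 and 9.57. HBAD was 2-fold higher in pool 1 than in pool 2 (0.577%). TAL1 was so in pool 2 over pool 3 (2.61%), and EPB42 in pool 3 over pool 2 (0.223%). The 5 globins exceeded pool 3 in pool 1 by 0.55 to 1.09 log2 units, and pool 2 by 0.51 to 1.20. Of the 16 erythroid genes 9 were above the organ reference, and of the 24 leukocyte genes 3, so near-flat medians say little about these cells. Over 24 leukocyte genes the 3 medians were −0.05, −0.09 and −0.09. LCP1, an actin-bundling protein of leukocytes, was the only member past 2-fold, at 7.70, 7.28 and 6.06. It was so in pool 1 over pool 3 (3.61% of all genes) and in pool 2 over pool 3 (2.61%).

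**Figure D4:**
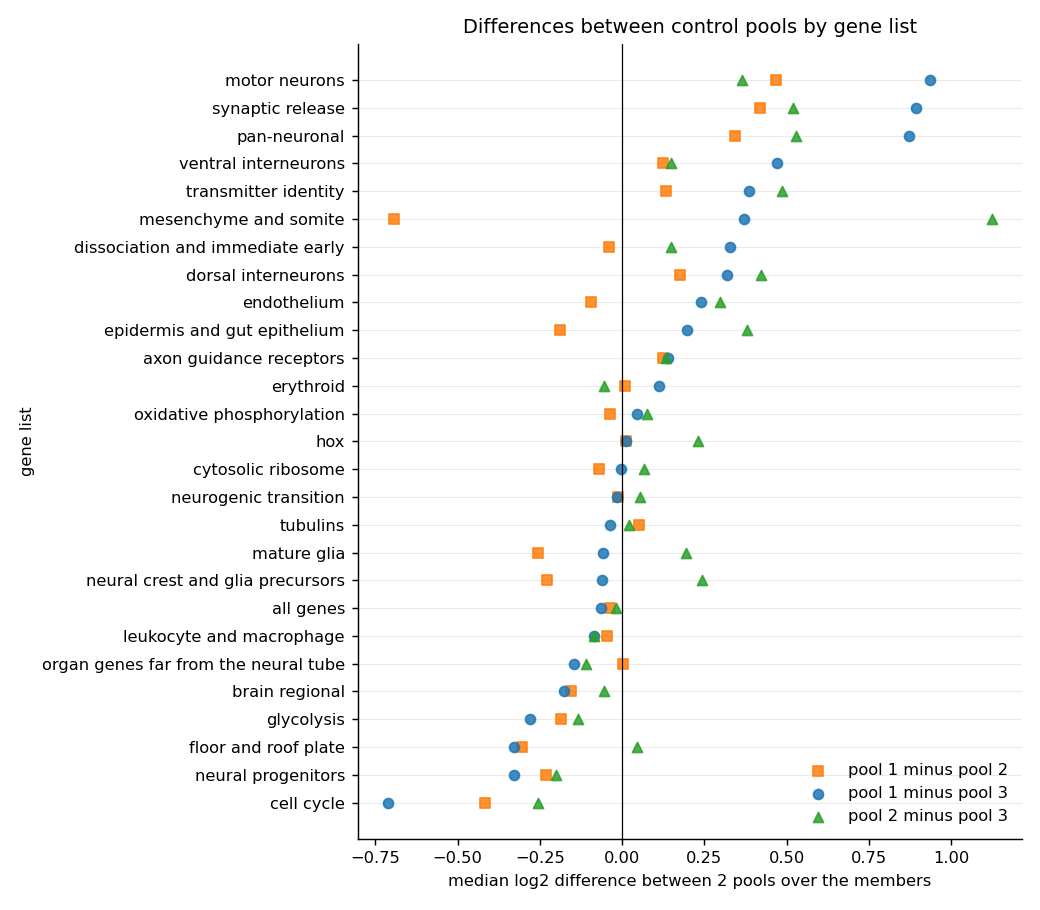
Median log2 difference between 2 control pools over the measured members (x) for 26 gene lists and for all genes (y), with squares for pool 1 minus pool 2, circles for pool 1 minus pool 3 and triangles for pool 2 minus pool 3. Motor neuron, synaptic and pan-neuronal lists lie to the right for pool 1 minus pool 3, at 0.87 to 0.94, the cell cycle list lies at −0.71, and mesenchyme is the list with the widest separation between pools 2 and 3.

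Each pool also had genes that set it apart from both others. Dim genes were left out, with a limit of 2 log2 units over the 5th percentile of the probe sets. Among the 11327 that remained, 52 (0.459%) were 2-fold or more above both other pools in pool 1, 44 (0.388%) in pool 2 and 9 (0.0795%) in pool 3. Below both others at 2-fold were 18 (0.159%) in pool 1, 180 (1.59%) in pool 3 and 0 (0%) in pool 2. Those of pool 1 were led by NRXN3, SLC6A5, MINAR1 and MYO7A, an unconventional myosin, with SLC5A7 and CHAT among the first 8. Those of pool 2 were led by CYTL1, VEGFD, SNAI1 and TWIST1. VEGFD, a lymphatic growth factor, read 6.50, 8.80 and 5.98, and SNAI1, a repressor of E-cadherin, 7.46, 9.33 and 6.01.

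Genes low in pool 3 alone had the widest gaps of all. COL8A1, a short-chain collagen, read 9.21, 9.38 and 6.25, and was followed by DCN, CDH5, GYPC, KRT7, CYP1B1, SST1 and RAB38. CYP1B1, a cytochrome of retinoid and steroid metabolism, read 8.49, 8.90 and 6.33. Several were genes of matrix, vessels and epithelia. SST1, the gene of the neuropeptide somatostatin, was among them at 8.96, 8.33 and 6.23. Genes high in pool 3 alone had small gaps and included PRTG, protogenin, an immunoglobulin superfamily protein of the early NT, at 9.23, 9.41 and 10.61. The immediate early genes, which respond to dissociation, were lower in pool 3 in part, with EGR1 at 10.50, 10.54 and 8.86, KLF6 at 10.19, 10.40 and 9.01, and FOS at 6.27, 6.62 and 5.41. Of the 19 genes of that list 4 were higher in pool 2 than in pool 3 at 2-fold (2.61% of all genes) and 3 in pool 1 than in pool 3 (3.61%).

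Genes low in pool 1 alone included HOXD11, at 7.39, 8.73 and 8.82, and HNRNPKL, a gene of the W chromosome, at 8.49, 9.77 and 9.76. The Hox and W genes were then listed in full, after these values had been seen. Of 8 Hox genes in paralogue groups 11 to 13, 7 were lower in pool 1 than the mean of the other pools, by up to 1.39 log2 units. These include HOXD11, whose low value prompted the listing. With group 10 added, 7 of 10 were lower and 3 higher. HOXA10 and HOXD10 were among the higher ones, by 0.21 and 0.10. The share of all genes that are lower in this sense was not computed. HOXA11 read 8.50, 9.67 and 9.32, HOXC11 8.05, 9.25 and 8.78, and HOXD12 5.57, 7.41 and 6.40. Of 11 Hox genes in groups 5 to 9, 9 were higher in pool 1, led by HOXC8 at 9.47, 8.57 and 8.34 and HOXA7 at 10.25, 9.79 and 9.29. Of these 11, 7 were highest in pool 1, as 28.6% of all genes were. In groups 1 to 4, 5 genes were higher in pool 1 than the mean of the other pools and 3 were lower. In groups 11 to 13, 6 of the 8 were lowest in pool 1, as 41.2% of all genes were. The exceptions were HOXA13 and HOXB13, and HOXA13 was highest in pool 1. Both had means under the organ reference. So did HOXD12, HOXC13 and HOXD13 among the 6, at 6.46, 7.03 and 5.08.

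The W chromosome is carried by female birds only. In a current chicken assembly, 17 of the measured genes lie on it, and 12 of these were lowest in pool 1 (41.2% of all genes were). HNRNPKL, whose low value prompted the listing, is among the 12. Of the 8 W genes at or above the median signal, 4 were lowest in pool 1 and 2 highest. The shares for such genes of the other chromosomes were 43.1% and 28.7%. The medians of these 8 were −0.34 for pool 1 minus pool 2 and −0.46 for pool 1 minus pool 3. Such genes of the other chromosomes had −0.05 and −0.07. At 2-fold, 2 of the 8 were lower in pool 1 than in pool 2, against 41 of 6163. Of all 17, 6 were lower in pool 1 than in pool 2 at 2-fold (0.992% of all genes) and 2 than in pool 3 (0.838%). The medians of the 17 were −0.67 for pool 1 minus pool 2, −0.72 for pool 1 minus pool 3 and 0.12 for pool 2 minus pool 3. Probe sets of W genes may also bind the transcripts of related Z copies. HINTW, a W-linked gene of high copy number, ranked 42 with 12.53, 13.19 and 13.30. Over 604 genes of the Z chromosome, of which males have a further copy, the medians were 0.04, 0.04 and −0.01, against −0.04, −0.07 and −0.02 over 12206 genes of the other chromosomes. The labels give no sex of the embryos or exact axial extent of the tissue in each pool, and the part of either in the differences between pools was not tested.

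**Figure D5:**
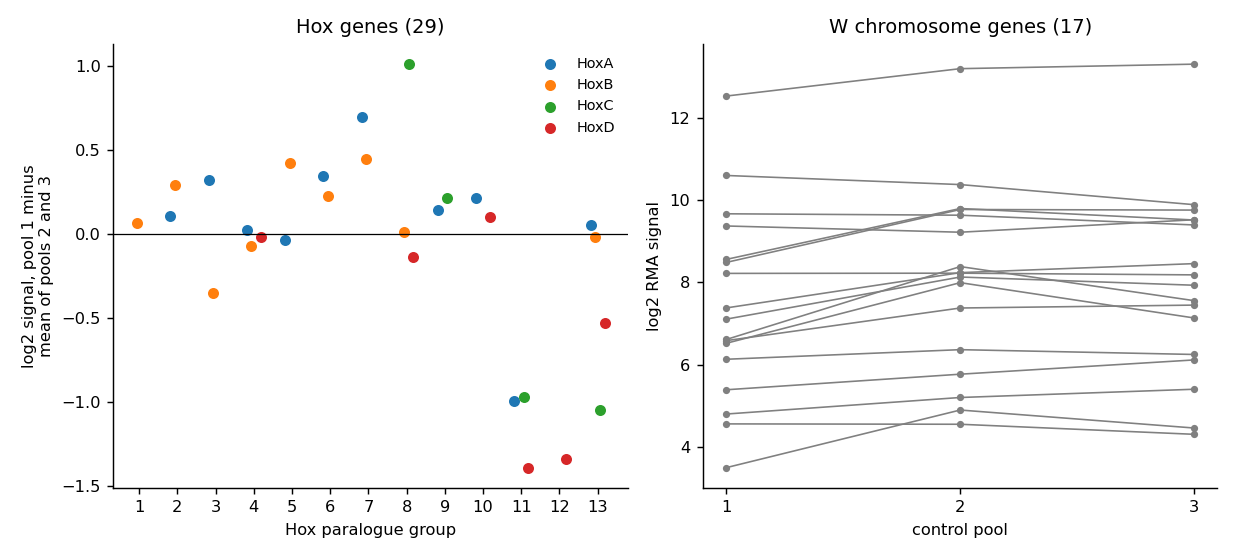
Left, log2 signal in pool 1 minus the mean of pools 2 and 3 (y) for 29 Hox genes by paralogue group (x), coloured by cluster. Right, log2 RMA signal (y) in pools 1, 2 and 3 (x) of 17 genes of the W chromosome, with each line a gene, where 12 of the 17 are lowest in pool 1.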

How the data were processed

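Amplified RNA of the GFP+ cells was read on Affymetrix Chicken Genome arrays. The authors deposited log2 values made by RMA, with background correction, quantile normalization and probe summary, and its software version is not given in the sources used here. Quantile normalization brings all arrays to nearly 1 distribution, so differences between pools are relative to the other genes of the array. The 3 columns of control arrays were used as deposited, and 3 other columns of values were not used.

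Of 38535 probe sets 96 Affymetrix controls were left out; 27168 carried 1 gene symbol, 177 several and 11094 none. For each of 13009 genes, 7334 of them with several probe sets, the one with the highest control mean was kept. Lists (26, with 825 entries) were matched by symbol, share members, and were drawn up from general knowledge. The members and lists were chosen with earlier results of these data known.

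Genes named individually (262) were 5 markers, the 25 brightest genes, in each list up to 5 with the highest mean and up to 3 with the widest range, the 8 genes farthest above and below the other pools in each pool, and the cell type markers. Other list members, and the further Hox, W and immediate early genes, are named with their values seen. Chromosomes came from RefSeq for 12848 genes. No hypothesis test was run, and the counting of differences was checked on simulated arrays. The planted changes were larger than 2-fold, and the noise was below the median SD of a gene. Calls near 2-fold were therefore not checked. Analyses used Python 3.11.15, numpy 2.4.6 and pandas 2.3.3.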

Additional observations from a re-analysis of the deposited data

How the results depend on the processing

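No paired analysis was possible because only the control group was used and no test was run. Of 173 results recomputed under alternatives, 143 stayed within 1.5 times (counts) or 1 SD and 30 moved further. When a gene was read by the mean of all its probe sets, 802 of the 1300 genes in the brightest 10th stayed there, and 123 genes in place of 204 were 2-fold apart between pools 1 and 2. Leaving out each pool in turn kept 1240 to 1262 of the 1300. Genes apart between pools 1 and 3 numbered 579 at 2-fold, 2066 at 1.5-fold and 53 at 4-fold. Between pools 1 and 2 they numbered 1275 at 1.5-fold and 4 at 4-fold, and between pools 2 and 3, with 369 at 2-fold, 1394 and 45. The cause was not tested. The list medians compared kept their direction under each alternative, except that of leukocyte genes between pools 1 and 3, which was 0.02 with the mean of all probe sets. Under the mean of all probe sets 3 erythroid genes were in the brightest 10th, where the report has none. HBE, HBBR and HBZ have 1 probe set each, so their values stay the same there and only their ranks can change. That count therefore depends on how genes with several probe sets are read. Without pool 1 or without pool 2 the count of erythroid genes was 1. The mean of all probe sets also moved marker ranks. TUBB3 went from 540 to 253 and SOX2 from 1183 to 543, with 1 probe set each and unchanged values of 11.32 and 10.56. ISL1 went from 178 to 98, STMN2 from 435 to 278 and DCX from 389 to 519. The median percentiles of lists moved there in both directions. That of synaptic release went from 49.1 to 35.0, guidance receptors from 82.4 to 75.9 and motor neurons from 64.4 to 50.6. That of dorsal interneurons rose from 54.2 to 64.6. Without pool 3, STMN2 had rank 231 and without pool 1, 734. Leaving out a pool does not apply to differences between pools.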

Other observations

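Among the genes farthest below the other pools in pool 1 were 5 that respond to interferon, picked out for these low values and not from a list. OASL, a member of the oligoadenylate synthetase family, read 6.96, 8.10 and 8.36 in pools 1, 2 and 3, IFI6 6.91, 8.71 and 7.96, and IFI27L2 6.98, 8.07 and 8.37. USP41 had 6.92 in pool 1 and 8.51 in pool 3. SAMHD1, an enzyme that degrades nucleotides, read 6.68, 7.84 and 7.68. RPLP1, an acidic ribosomal protein, read 11.24, 12.36 and 12.45, and was the only member of the ribosome list that differed by 2-fold between any pools.

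Among 57 probe sets for reporter sequences, the brightest read 13.31, 13.53 and 13.42 in pools 1, 2 and 3 and the second 11.80, 12.50 and 11.87, while the third had a mean of 7.36. The files used here do not say which reporter each reads. Of the 1000 brightest probe sets 181 had no gene symbol, the highest with a mean of 14.04, above that of TUBA1A, so the ranks given here leave out part of the bright signals.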
